A study of Homo sapiens with 20 samples.

Results

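The 10 genes described here encode enzymes of glycolysis: HK1, HK2, PFKP, ALDOA, TPI1, GAPDH, PGAM1, ENO1, PKM and LDHA. They were chosen by name, from the pathway to which GAPDH belongs, out of 57087 genes to which the transcripts in the files could be assigned, and all 10 had enough counts to be tested in every comparison. From profiles of chromatin-associated RNA, the study described GAPDH as a non-target gene with a constant level in wild type and the knockdowns. In a quantitative PCR it also normalised nascent SPINT1 and GK to GAPDH. The questions were whether GAPDH was level in these libraries, and whether the enzymes on either side of it in the pathway moved with it. The series came from HEK293 cells, a human embryonic kidney line, in which an enzyme or effector of RNA interference was depleted by short hairpin RNA (shRNA). RNA of whole cells (mRNA-seq) was compared between 3 wild-type samples labelled HEK293T and 3 samples of HEK293 2B cells carrying a Dicer shRNA, both kept for 7 days in doxycycline at 3 µg/ml. RNA that stayed with chromatin (chrRNA-seq) was compared between HEK293 cells labelled wild type, shDicer, shAgo2 and shDrosha, with 2 samples in each group. The shDicer and shAgo2 lines carried a doxycycline-inducible hairpin and received 3 µg/ml for 72 h, and the Drosha knockdown (DroshaKD) was made by transfecting hairpin plasmids. In these assays no library came from a line with a scrambled hairpin, so the effect of a depleted protein cannot be told apart from that of the line or the hairpin, or, in DroshaKD, the transfection. Doxycycline was given to both mRNA-seq groups, and the sources used here do not say whether the wild-type cells of chrRNA-seq received it. The labels do not say whether the samples of a group were separate cultures, and p-values then measure only the spread between these samples, which may be technical.

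Glycolysis splits glucose into pyruvate in the cytosol and yields ATP and NADH. Hexokinases (HK1, HK2) trap glucose as its phosphate, phosphofructokinase (PFKP, the platelet form) makes the committed step, and aldolase (ALDOA) and triosephosphate isomerase (TPI1) give the triose phosphates that GAPDH oxidises. PGAM1, ENO1 and PKM carry the product on to pyruvate, and LDHA reduces pyruvate to lactate, which restores the NAD+ that GAPDH needs. Many of these genes are known targets of HIF-1 and MYC. Dicer and Drosha are the RNases that process small RNAs, and Ago2 is the slicing Argonaute that such RNAs guide.

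The libraries held 10216430 to 17215978 estimated counts in mRNA-seq and 17484067 to 21553760 in chrRNA-seq, and 3 counts, the floor of detection, equal 0.179 to 0.307 CPM and 0.148 to 0.189 CPM. Levels below are CPM (counts scaled to a common library size after TMM, which gives each library a scaling factor), unless given as TPM, which also divides by transcript length. Among the depleted genes, DICER1 fell in shDicer mRNA from 247 ± 13.5 to 87.8 ± 6.92 CPM (SD, n = 3), and AGO2 fell in shAgo2 chromatin RNA from 247 ± 10.7 to 161 ± 2.06 CPM (SD, n = 2). In chromatin RNA the log2 difference was -0.18 for DICER1 in shDicer (edgeR adjusted p = 0.166) and 0.07 for DROSHA in DroshaKD (edgeR adjusted p = 0.697), so those labels could not be checked from the depleted gene. DICER1 was higher in shAgo2 chromatin RNA (0.78, edgeR adjusted p = 3.59e-05). Of 8 markers of HEK293 cells, VIM (377 to 496 CPM), CDH2 (61.5 to 107 CPM), KRT18, KRT8 and INA were above the floor in every mRNA library, while PAX2 (0.0757 to 0.267 CPM) and LHX1 (0 to 0.954 CPM) were at or near it and NEFM ran from 0.238 to 6.45 CPM, and 8 markers of other cell types summed to 1.86 to 3.38 CPM in mRNA and to 69.8 to 83.4 CPM in chromatin RNA, with CD3E and CDH5 at 0 in every mRNA library. Several whole-library values moved with the groups. The HEK293 markers summed to 505 to 596 CPM in wild-type and 618 to 738 CPM in shDicer mRNA, and to 668 to 738 CPM in wild-type chromatin RNA against 358 to 459, 390 to 428 and 382 to 485 CPM in shDicer, shAgo2 and DroshaKD. Mitochondrial mRNAs summed to 1686 to 1802 CPM in wild-type mRNA and to 2356 to 2834 CPM in shDicer mRNA, and a list of nuclear RNAs summed to 4798 to 4848 CPM in wild-type chromatin and to 10255 to 11299, 9508 to 10351 and 6238 to 6816 CPM in shDicer, shAgo2 and DroshaKD. Their part in the results below was not tested. In bulk samples, fewer cells that use a gene and less of its RNA per cell cannot be told apart.

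GAPDH (ENSG00000111640) lies at chr12:6534512-6538374 on the plus strand of GRCh38. The pair of primers with which the study measured it by qRT-PCR is shown because it fixes which RNA that measurement reads.
GAPDH forward: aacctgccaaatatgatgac
GAPDH reverse: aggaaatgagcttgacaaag
In the genome these primers match chr12:6537810-6537829 on the plus strand and chr12:6537976-6537995 on the minus strand, and the 186 bases between their outer ends lie inside exon 8 of 9 (chr12:6537584-6537996). Both sites occur in 9 of 11 GAPDH transcripts in the files, of which 6 are protein-coding and 3 hold a retained intron, and these carried 96.3 to 99.4% of GAPDH counts in mRNA-seq and 90.5 to 94.4% in chrRNA-seq. The product spans no intron, and 3 GAPDH pseudogenes (GAPDHP62, GAPDHP63 and GAPDHP68) hold both sites as well. So do the transcripts ANKRD46-207 and ANKRD46-211 of another gene, with a product of 185 bases. The gene sums used here cover nearly the same transcripts of the GAPDH gene as the primers do. They leave out the pseudogenes and ANKRD46, and the share of pseudogenes named for GAPDH in chromatin RNA is given below.

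In wild-type mRNA, GAPDH was the most abundant member per length at 790.2 TPM, followed by ENO1 at 552, TPI1 at 433 and PGAM1 at 237 TPM. LDHA (162 TPM) and PKM (146 TPM) came next and overlapped each other over the 3 samples, and ALDOA (92.2), PFKP (28.0), HK1 (7.67) and HK2 (5.55 TPM) closed the order. The hexokinases, at the entry of the pathway, were thus the least abundant mRNAs among the members. For ALDOA alone among the members, the transcript annotated as canonical (the main one of a gene) was not among those quantified. Its levels and changes in both assays are therefore less certain.

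In shDicer cells most of the pathway rose in mRNA, with GAPDH in the middle of the range, while HK2 and LDHA fell. PFKP, the committed-step enzyme, rose 3.08-fold, HK1 1.79-fold, ENO1 1.73-fold, PKM 1.56-fold, GAPDH 1.48-fold and PGAM1 1.27-fold. HK2, the inducible hexokinase, dropped to 0.553 of wild type and LDHA to 0.715. By edgeR's quasi-likelihood test with Benjamini-Hochberg adjustment, at the adjusted p of 0.001 that the study set for this comparison, 6 members were higher, 2 were lower and 2 did not pass. Over all 15090 genes tested, 15.6% were higher and 14.2% lower, and the median log2 fold change was 0.48 for the members and 0.01 for all genes. The members together took 6320.3 to 6550.4 CPM of a wild-type and 8459 to 10073.5 CPM of a shDicer mRNA library.

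**Figure D1:**
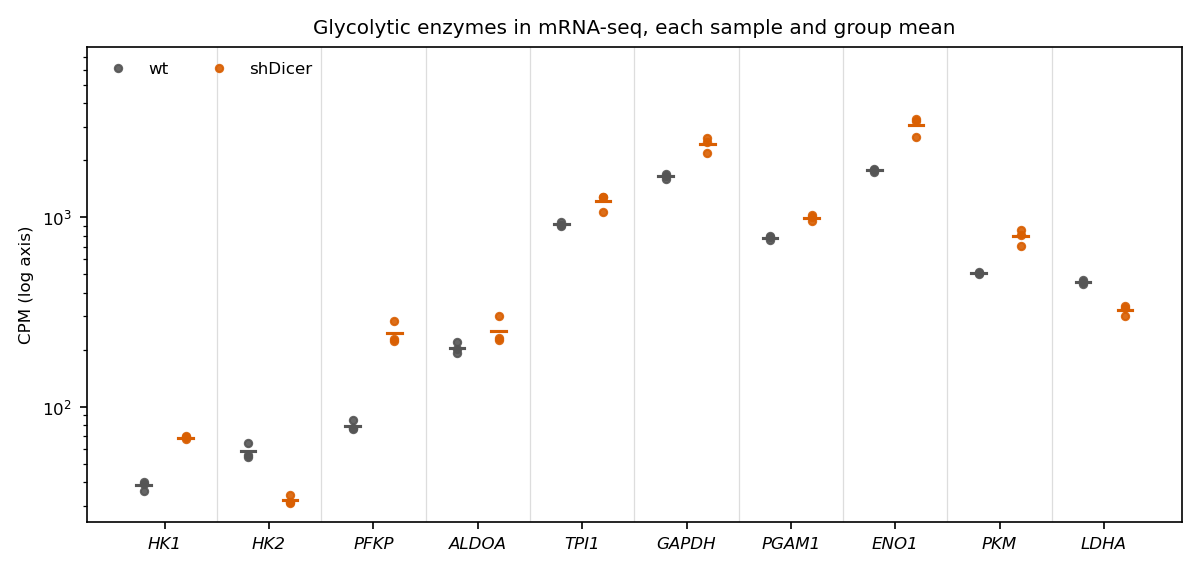
Level of the 10 enzymes in each mRNA-seq sample, in CPM on a log axis, ordered along the pathway, with points for the 3 wild-type and 3 shDicer samples and a bar at each group mean. PFKP stands apart most, at 76.0 to 85.4 CPM in wild type and 222 to 285 CPM in shDicer, and HK2 and LDHA are the members whose shDicer samples lie below wild type.

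PFKP was at 77.3, 76.0 and 85.4 CPM in the wild-type samples and at 285, 222 and 228 CPM in shDicer, a log2 fold change of 1.62 (SE 0.103, edgeR adjusted p = 4.11e-07). The lowest shDicer sample lay well above the highest wild-type sample. HK1 was at 35.9, 39.2 and 40.1 CPM against 69.8, 68.9 and 67.4 CPM (log2 fold change 0.84, SE 0.082, adjusted p = 9.18e-06). The other hexokinase went the opposite way: HK2 was at 54.1, 64.6 and 55.9 CPM in wild type and at 30.9, 34.3 and 31.4 CPM in shDicer (log2 fold change -0.85, SE 0.0989, adjusted p = 3.06e-05). The hexokinases thus moved in opposite directions.

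GAPDH was at 1697, 1588 and 1656 CPM in wild type and at 2634, 2496 and 2198 CPM in shDicer (log2 fold change 0.57, SE 0.0801, adjusted p = 0.000124). No shDicer sample was as low as the highest wild-type sample. Yet shDicer replicate 3 was the lowest of its group for GAPDH, and also for HK1, ALDOA, TPI1, PGAM1, ENO1 and PKM. ENO1 was at 1796, 1745 and 1772 CPM against 3306, 3217 and 2643 CPM (0.79, SE 0.0884, adjusted p = 2.46e-05). PKM, pyruvate kinase, went from 509 ± 3.95 to 793 ± 76.7 CPM (SD, n = 3; 0.64, adjusted p = 4.95e-05), and PGAM1 from 782 ± 21.8 to 995 ± 35.8 CPM (0.35, adjusted p = 0.000946). The PGAM1 call was lost in 9 of 15 alternative fits, among them that with a term for the replicate number (0.35, edgeR adjusted p = 0.0024). LDHA was at 445, 456 and 464 CPM in wild type and at 303, 342 and 332 CPM in shDicer (-0.48, SE 0.0699, adjusted p = 0.00015). The 2 members that missed the threshold were TPI1, at 919 ± 23.3 and 1213 ± 124 CPM (0.40, adjusted p = 0.00166), and ALDOA, at 205 ± 14.5 and 252 ± 43.4 CPM (0.30, adjusted p = 0.039). For all 10 enzymes the samples of the groups did not overlap. In shDicer 8 were higher, where 32.8% of all genes were higher without overlap, and 2 were lower. The share of all genes that were lower without overlap was not set beside these 2, so that count is no result about the members. Without any 1 wild-type sample GAPDH no longer passed (adjusted p = 0.00132, 0.00169 and 0.00166 without replicate 1, 2 and 3) and 4 members were higher instead of 6.

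Against GAPDH itself, 3 of the 9 other members differed from it in shDicer mRNA. When the GAPDH count of each sample was the only scaling, so that a value of 0 means a change equal to that of GAPDH, PFKP was higher (log2 difference 1.05, edgeR adjusted p = 2.00e-06), and LDHA (-1.04, adjusted p = 2.15e-06) and HK2 (-1.42, adjusted p = 4.09e-07) were lower. The other 6 enzymes did not pass, from ALDOA at -0.27 (adjusted p = 0.0584) to HK1 at 0.28 (adjusted p = 0.0715), with PKM closest to GAPDH at 0.07 (adjusted p = 0.56). On this scale 6.56% of all genes were higher and 35.2% lower and the median gene stood at -0.55.

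On chromatin the order of the pathway differed. In wild-type chromatin RNA, ENO1 led with 433 TPM, followed by PKM (330.5), GAPDH (256), TPI1 (143), ALDOA (121), LDHA (95.1), PGAM1 (80.0), PFKP (72.8), HK1 (32.0) and HK2 (19.7 TPM), and no neighbours in this order overlapped over the 2 samples. GAPDH, TPI1 and PGAM1 were 3.08, 3.03 and 2.96 times as abundant in mRNA-seq as in chrRNA-seq by TPM, PKM, PFKP, HK2 and HK1 only 0.441, 0.384, 0.282 and 0.240 times, and the median over 9003 expressed genes was 0.511. These ratios set libraries of different preparation and wild-type cells of different label side by side, and no test was made of them.

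In shDicer chromatin RNA the rise of the pathway was not seen: PFKP was higher, HK2 and LDHA were lower, and 7 members, GAPDH among them, did not pass. At the adjusted p of 0.005 that the study set here, 11.0% of 32874 genes tested were higher and 10.5% lower. The members' median log2 fold change was -0.09, and that of all genes 0.01. GAPDH was at 438 and 469 CPM in wild type and at 409 and 523 CPM in shDicer, so that the groups overlapped (0.04, SE 0.145, edgeR adjusted p = 0.865). ENO1 (0.06, adjusted p = 0.826), TPI1 (0.03, adjusted p = 0.839), HK1 (-0.05, adjusted p = 0.756), PKM (-0.13, adjusted p = 0.525) and PGAM1 (-0.18, adjusted p = 0.279) lay near 0 as well.

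PFKP was at 139 and 134 CPM in wild-type and at 245 and 264 CPM in shDicer chromatin RNA (0.90, SE 0.0759, adjusted p = 3.01e-06). HK2 was at 102 and 114 CPM against 58.1 and 68.9 CPM (-0.76, SE 0.123, adjusted p = 0.000434), and LDHA at 185 and 199 CPM against 109 and 140.2 CPM (-0.62, SE 0.144, adjusted p = 0.00497). In mRNA these were the enzymes with the largest departures from GAPDH. ALDOA was at 205 and 224 CPM against 114 and 161 CPM, with no overlap, and missed the threshold (-0.64, adjusted p = 0.00866). In all, 3 members were lower without overlap, a share near that of all genes (33.9%). Over 19 alternative fits the LDHA call was lost in 12 and the HK2 call in 3. When 1 chromatin sample was left out, 0 to 3 members were lower, and both of the lower calls were lost without wild-type replicate 2.

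In shAgo2 chromatin RNA 6 of the 10 members fell by edgeR, GAPDH among them, and PFKP rose. GAPDH dropped to 0.646 of wild type. HK2, ALDOA, LDHA, TPI1, GAPDH and HK1 were lower, PFKP was higher, and PGAM1, PKM and ENO1 did not pass at the adjusted p of 0.005, where 12.5% of all genes were higher and 12.1% lower. The members' median log2 fold change was -0.58, and that of all genes 0.00.

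GAPDH was at 438 and 469 CPM in wild type and at 269 and 317 CPM in shAgo2 (-0.63, SE 0.146, edgeR adjusted p = 0.00437). By DESeq2, the test that the study used, GAPDH did not pass (-0.64, DESeq2 adjusted p = 0.0211). With the replicate block it did not pass either (-0.63, edgeR adjusted p = 0.00985). The GAPDH call was lost in 10 of 19 alternative fits and held in the others. TPI1, the neighbour of GAPDH in the pathway, was at 176 and 175 CPM against 103 and 116 CPM (-0.68, SE 0.09, edgeR adjusted p = 8.62e-05). HK2 had the largest fall, from 102 and 114 CPM to 46.8 and 54.3 CPM (-1.09, SE 0.125, adjusted p = 2.64e-05). Thus both hexokinases, aldolase, the isomerase, GAPDH and LDHA were below both wild-type samples in both shAgo2 samples. ALDOA changed by -0.82 (SE 0.165, adjusted p = 0.00175), LDHA by -0.75 (SE 0.145, adjusted p = 0.00136) and HK1 by -0.52 (SE 0.109, adjusted p = 0.00226). PFKP was at 232 and 234 CPM against 139 and 134 CPM (0.77, SE 0.0758, adjusted p = 8.13e-06), close to its level in shDicer. PGAM1 (-0.33, adjusted p = 0.0518), PKM (-0.33, adjusted p = 0.0928) and ENO1 (-0.14, adjusted p = 0.569) had smaller differences. All 9 members other than PFKP were lower without overlap, as were 36.0% of all genes. The GAPDH call rested on each of 4 libraries: its adjusted p was 0.0188 and 0.0368 without wild-type replicate 1 and 2, and 0.0603 and 0.0128 without shAgo2 replicate 1 and 2, and 2 members instead of 6 were lower without any of them.

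In DroshaKD chromatin RNA all 10 members stood below wild type, and GAPDH fell most. GAPDH dropped to 0.523 of wild type, and 9 members were lower at the adjusted p of 0.05 that the study set for this comparison, which is a looser threshold than in the others. Over all genes 1.19% were higher and 2.18% lower. The members' median log2 fold change was -0.63, and that of all genes 0.00. PFKP, which rose in shDicer and shAgo2, fell here. The members together took 3239.6 to 3504 CPM of a wild-type and 1768 to 2388 CPM of a DroshaKD library.

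GAPDH was at 438 and 469 CPM in wild type and at 273 and 201 CPM in DroshaKD (-0.93, SE 0.147, edgeR adjusted p = 0.00807). ENO1 was at 980.1 and 1084 CPM against 706 and 461 CPM (-0.82, SE 0.176, adjusted p = 0.0285), and PKM at 709 and 786 CPM against 548 and 409 CPM (-0.64, SE 0.149, adjusted p = 0.0382). DroshaKD replicate 2 was below replicate 1 for all 10 members. ALDOA changed by -0.86 (adjusted p = 0.0185), LDHA by -0.73 (adjusted p = 0.0215), HK2 by -0.61 (adjusted p = 0.022), HK1 by -0.51 (adjusted p = 0.028) and TPI1 by -0.42 (adjusted p = 0.0272). PFKP was at 139 and 134 CPM against 105 and 98.7 CPM (-0.43, SE 0.0768, adjusted p = 0.0133). PGAM1 did not pass (-0.26, SE 0.125, adjusted p = 0.276). None of the 10 overlapped with wild type, where 24.6% of all genes were lower without overlap. Leaving out either wild-type sample, which leaves 1 in that group, removed all of these calls. GAPDH then stood at -0.98 without wild-type replicate 1 and at -0.88 without replicate 2. It stood at -1.17 without DroshaKD replicate 1 and at -0.73 without replicate 2. Without either shAgo2 sample, which enters only through the shared estimate of the spread, 5 members were lower.

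**Figure D2:**
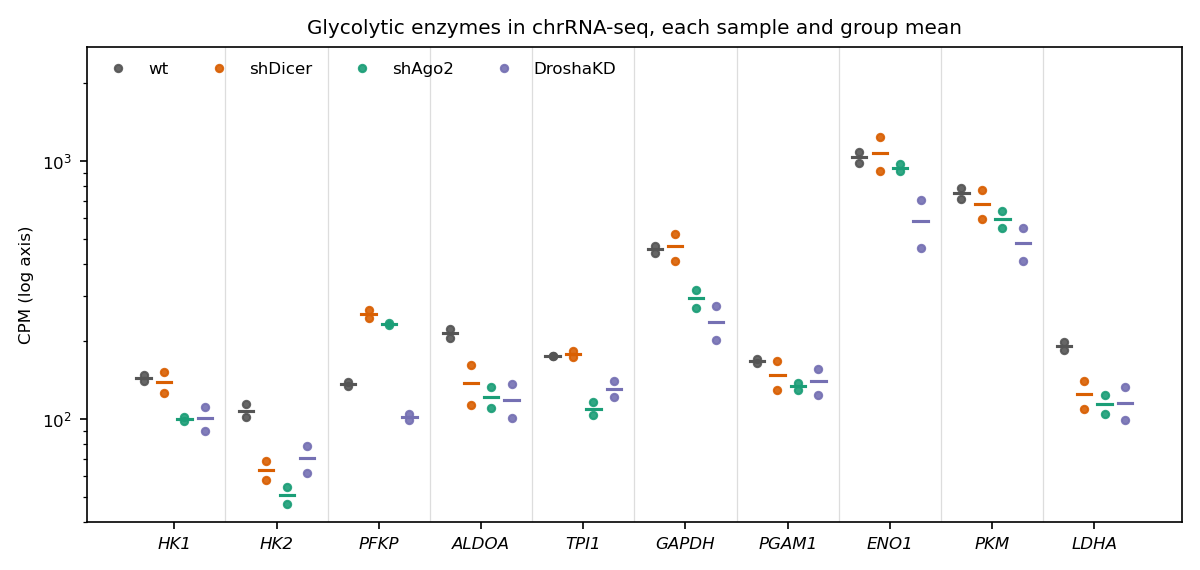
Level of the 10 enzymes in each chrRNA-seq sample, in CPM on a log axis, with points for the 2 samples of wild type, shDicer, shAgo2 and DroshaKD and a bar at each group mean. GAPDH lies at 438 and 469 CPM in wild type and at 201 to 317 CPM in the 4 shAgo2 and DroshaKD samples, and PFKP at 232 to 264 CPM in the 4 shDicer and shAgo2 samples.

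**Figure D3:**
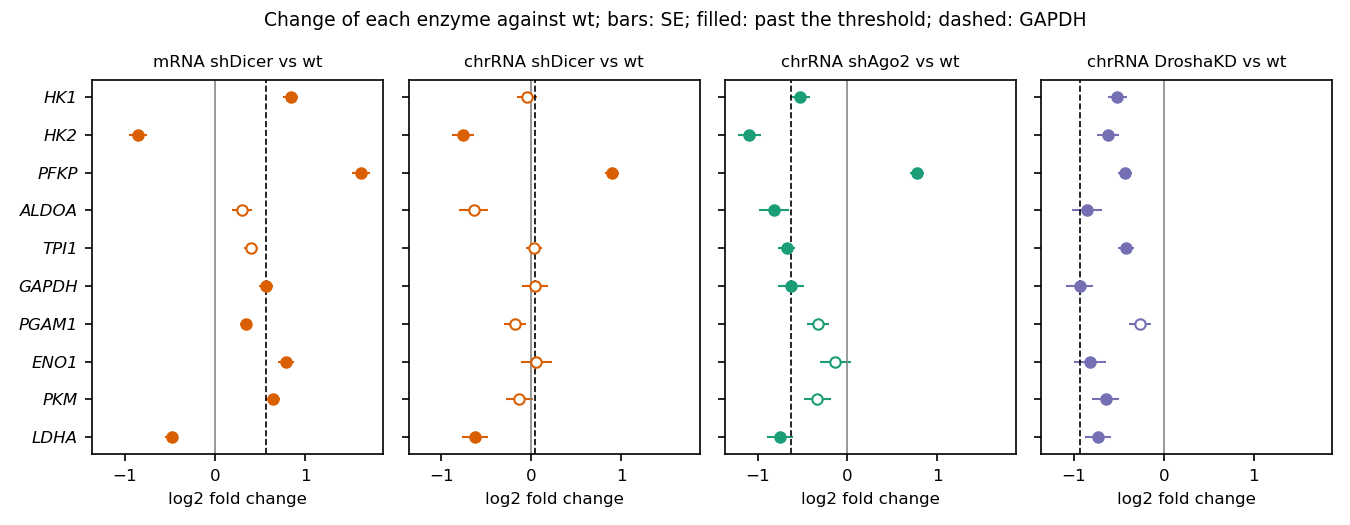
Log2 fold change of each enzyme against wild type with its SE, in 1 panel for shDicer mRNA and 1 for each chromatin comparison, filled where the adjusted p passed the threshold of that comparison, with a dashed line at the value of GAPDH. In shDicer mRNA the values run from -0.85 (HK2) to 1.62 (PFKP), in DroshaKD chromatin RNA all are below 0, and PFKP is above 0 in the other panels.

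The 3 chromatin comparisons share the same wild-type samples, so the knockdowns were also set against each other directly. Between shAgo2 and shDicer, TPI1 was lower in shAgo2 (-0.70, edgeR adjusted p = 0.000696), where 1.37% of all genes were lower. GAPDH (-0.67, adjusted p = 0.0138) and HK1 (-0.47, adjusted p = 0.0178) did not pass 0.005. In DroshaKD against shDicer, where 11.0% of all genes were lower, PFKP (-1.32, adjusted p = 1.49e-07), GAPDH (-0.97, adjusted p = 0.000284), ENO1 (-0.88, adjusted p = 0.00199) and TPI1 (-0.45, adjusted p = 0.00192) were lower, and HK1 was just outside (-0.47, adjusted p = 0.00552). In DroshaKD against shAgo2, where 11.6% of all genes were lower, only PFKP passed among the members (-1.20, adjusted p = 2.96e-07), and GAPDH did not (-0.30, adjusted p = 0.125). The direct comparisons thus set PFKP in DroshaKD apart from both other knockdowns.

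The shDicer effect on the pathway differed between the assays. In a fit with both, the effect in chromatin RNA minus that in mRNA was below 0 for 9 members, with a median of -0.71, against -0.10 for all genes. It passed the adjusted p of 0.005 for ALDOA (-1.02, SE 0.208, edgeR adjusted p = 0.00382), HK1 (-0.97, SE 0.132, adjusted p = 0.000175), PKM (-0.85, SE 0.16, adjusted p = 0.00222) and PFKP (-0.80, SE 0.156, adjusted p = 0.00277), where 3.82% of all genes were lower. The call held for HK1 in all but 1 of 17 alternatives and was lost in 12 for PFKP, 11 for ALDOA and 10 for PKM, including each of the 3 fits without a wild-type mRNA sample and those without wild-type replicate 2 or shDicer replicate 1 on chromatin. ENO1 (-0.81, adjusted p = 0.00654), PGAM1 (-0.61, adjusted p = 0.00925), GAPDH (-0.61, adjusted p = 0.0188) and TPI1 (-0.45, adjusted p = 0.0378) did not pass. HK2, which fell in both assays, had a difference of 0.01 (adjusted p = 1.0), and LDHA one of -0.21 (adjusted p = 0.386). The fit scaled both assays together, with TMM factors of 0.589 to 2.10, against 0.978 to 1.03 within mRNA-seq and 0.968 to 1.05 within chrRNA-seq. All genes had a median of 0.01 in the separate fit of either assay. The GAPDH difference was -0.43 with DESeq2-type size factors and -0.48 with library size only. The part of this scaling in the differences was not tested. The wild-type cells, the days of doxycycline and the library kits also differed between the assays, and their part cannot be told apart.

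Set against GAPDH, 2, 1 and 3 of the 9 other members differed from it in shDicer, shAgo2 and DroshaKD chromatin RNA. In shDicer, PFKP was higher than GAPDH (log2 difference 0.87, edgeR adjusted p = 0.000318) and HK2 lower (-0.79, adjusted p = 0.00425), where 5.72% of all genes were higher and 3.58% lower. In shAgo2, PFKP alone was higher (1.41, adjusted p = 2.12e-10), and the other 8 did not pass, ENO1 at 0.50 (adjusted p = 0.00848) and HK2 at -0.46 (adjusted p = 0.075) being farthest off, where 27.6% of all genes were higher and 1.3% lower. In DroshaKD, PGAM1 (0.68, adjusted p = 0.00222), PFKP (0.53, adjusted p = 0.0135) and TPI1 (0.53, adjusted p = 0.0156) were higher and 6 of 9 did not pass, ALDOA (0.08) and ENO1 (0.10) being among them, where 80.5% of all genes were higher and 0.1% lower.

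The medians of all genes relative to GAPDH, -0.55 in shDicer mRNA and -0.01, 0.64 and 0.96 in shDicer, shAgo2 and DroshaKD chromatin RNA, follow by construction from the change of GAPDH itself, since this scaling shifts every gene of a library alike. The shares of all genes called on this scale follow in large part from the same shift.

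The deposited values are per transcript, so the transcripts annotated as protein-coding and as retained intron could be described apart for each gene. The counts were estimated on annotated transcripts, so reads from unspliced RNA may be assigned to either class. The classes are therefore not a measure of spliced against unspliced RNA. Transcripts annotated as retained intron keep at least 1 intron and are not listed as coding. In wild-type chromatin RNA they took 40.4 to 41.0% of LDHA counts, 33.2 to 33.7% of ALDOA, 28.9 to 31.3% of PKM, 20.7 to 23.0% of HK1, 18.1 to 18.8% of GAPDH, 15.6 to 16.7% of ENO1, 9.18 to 9.39% of TPI1, 8.69 to 9.02% of PFKP and 2.81 to 3.60% of HK2, while PGAM1 has no such transcript. Over all protein-coding genes the share was 19.9 to 20.3% in wild-type, 19.1 to 20.7% in shDicer, 19.0 to 19.2% in shAgo2 and 20.7 to 21.6% in DroshaKD chromatin RNA, and 4.42 to 5.18% in mRNA. In DroshaKD the shares of LDHA (55.1 to 56.2%), PKM (40.8 to 52.1%), ALDOA (42.4 to 50.9%), ENO1 (23.7 to 36.9%), GAPDH (26.8 to 28.7%), HK1 (28.0 to 31.1%), TPI1 (10.6 to 13.9%) and HK2 (3.94 to 4.83%) all lay above both wild-type samples. So did, in shDicer and shAgo2, those of LDHA (44.04 to 50.7% and 46.5 to 49.5%), ENO1 (18.2 to 26.8% and 22.2 to 23.0%) and HK1 (24.2 to 28.2% and 28.6 to 29.0%), and in shAgo2 those of PKM (33.8 to 35.4%) and TPI1 (10.3 to 11.7%). GAPDH was at 14.1 to 22.6% in shDicer and 16.5 to 17.3% in shAgo2.

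In DroshaKD the difference lay mostly in the protein-coding transcripts. Protein-coding GAPDH transcripts were at 353 and 381 CPM in wild type and at 199 and 143 CPM in DroshaKD, and the retained-intron transcripts at 81.7 and 84.0 CPM against 72.9 and 57.7 CPM. For ENO1 the protein-coding transcripts were at 779.8 and 880.3 CPM against 509.8 and 263 CPM, and the retained-intron transcripts stayed at 162 and 168 CPM against 166 and 169.6 CPM. PKM had the same form, with 413 and 479 CPM against 252 and 145 CPM for the protein-coding and 221 and 225 CPM against 223 and 213 CPM for the retained-intron transcripts. The median log2 fold change of the members was -0.92 for protein-coding and -0.18 for retained-intron transcripts.

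When each class was a feature of its own in the fit, GAPDH (-1.10, edgeR adjusted p = 0.0313), LDHA (-1.13, adjusted p = 0.0372) and PFKP (-0.44, adjusted p = 0.0494) were lower as protein-coding transcripts in DroshaKD, where 2.05% of such features were lower, and the 9 members with retained-intron transcripts did not pass for these (adjusted p of 0.168 or more), where 0.169% were lower. The test of unequal change between the classes was passed by none of 9 members at an adjusted p of 0.05 (0.066% of 7581 genes passed), while 6 of the 9 had an unadjusted p below 0.05, as did 419 of the 7581 genes. The lesser fall of the retained-intron transcripts is therefore a description of these 4 libraries. In shAgo2 both classes of GAPDH were low, at -0.58 (adjusted p = 0.0324) for protein-coding and -0.73 (adjusted p = 0.0022) for retained-intron transcripts, of which the latter passed 0.005, and ENO1 had more retained-intron RNA, from 162 and 168 to 211 and 217 CPM (0.37, adjusted p = 0.00458). For shAgo2, 11.6% of protein-coding and 11.4% of retained-intron features were lower.

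In mRNA the classes did change unequally in shDicer for 4 of 7 members tested, where 3.5% of genes did so at an adjusted p of 0.05. GAPDH rose more as retained-intron (1.62) than as protein-coding RNA (0.63, adjusted p of the difference by edgeR = 0.00558), though the former held only 23.1 to 32.8 CPM in wild type. PKM (0.73 as protein-coding and -0.13 as retained-intron RNA, adjusted p = 0.00769), ENO1 (0.88 and 0.20, adjusted p = 0.0339) and LDHA (-0.39 and -1.81, adjusted p = 0.00732) had the lower value in retained-intron RNA.

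**Figure D4:**
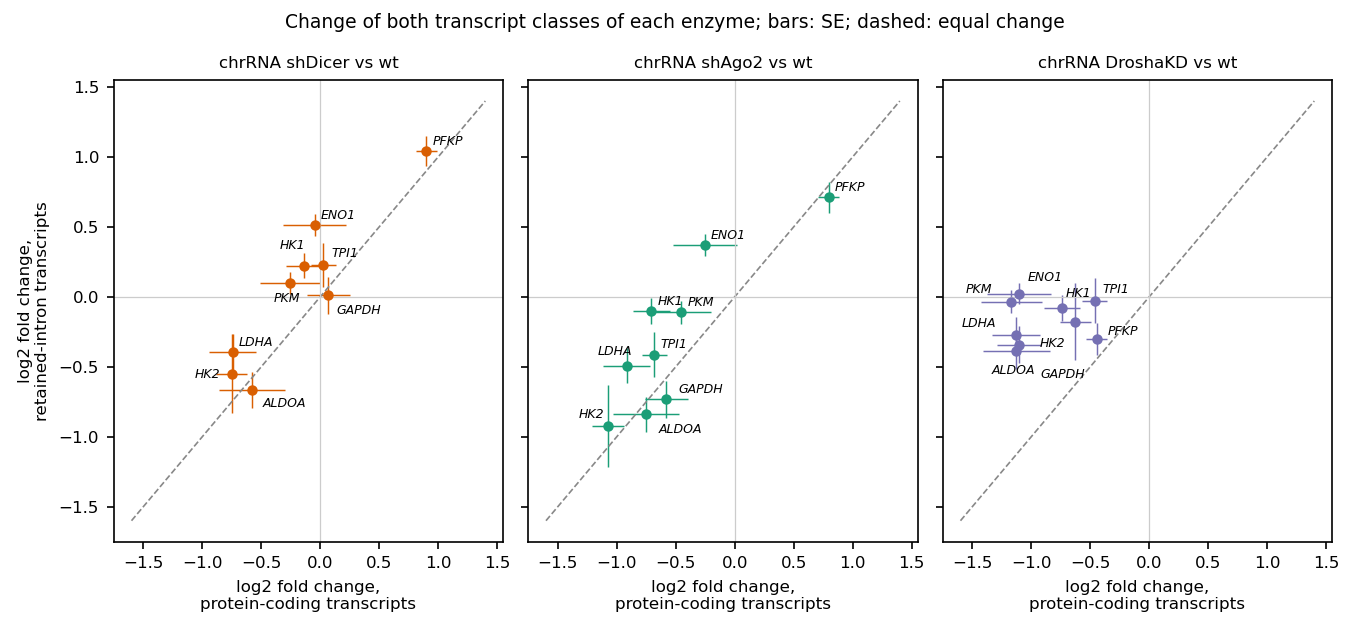
Log2 fold change against wild type of the protein-coding transcripts (horizontal axis) and the retained-intron transcripts (vertical axis) of each enzyme in shDicer, shAgo2 and DroshaKD chromatin RNA, with SE bars and a dashed line at equal change. In DroshaKD all 9 enzymes with both classes lie above the line, from -1.17 to -0.44 along the horizontal and from -0.39 to 0.02 along the vertical axis.

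The transcripts of PKM can also be grouped by exon. Pyruvate kinase is made in a PKM1 or a PKM2 form by a choice between alternative exons. These are of the same length, 167 bases, and differ at 62 of them. Both are coding exons on the minus strand of GRCh38, PKM1 at chr15:72203022-72203188 and PKM2 at chr15:72202454-72202620. The stretch in which they differ most, 20 of 30 bases, is shown because it is what tells the forms apart, with the bases that differ in capitals:
PKM1 exon, bases 54 to 83: TGTGcgAGCCTcAAGTCACTccaCAgaccT
PKM2 exon, bases 54 to 83: CCGCcgCCTGGcGCCCATTAccaGCgaccC
They lie at chr15:72203106-72203135 and chr15:72202538-72202567. Of transcripts with either exon, 5 hold that of PKM1 and 2 that of PKM2.

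PKM2 was the main form in mRNA, as is usual in dividing cells: PKM1 took 2.92, 3.24 and 4.24% of the counts in wild type and 3.21, 2.56 and 2.25% in shDicer. In chromatin RNA the PKM1 share was 18.6% (95% Wilson interval 17.7 to 19.6) and 17.1% (16.3 to 18.0) in wild type, 29.8 and 18.1% in shDicer, and 21.8 and 18.4% in shAgo2. In DroshaKD it was 26.1% (24.7 to 27.4) and 45.7% (43.7 to 47.8). These intervals, like the floors above, cover counting error only. Unspliced PKM RNA holds both exons, and its reads may be assigned to either form. On chromatin the shares are therefore not a measure of the choice between the exons. The counts behind these shares moved in the PKM2 form: PKM1 had 1236 and 1241 counts in wild type and 1048 and 1042 in DroshaKD, and PKM2 had 5392 and 6004 counts against 2974 and 1236. The DroshaKD samples differed from each other by more than either interval, and with 2 samples a group no test was made.

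Pseudogenes share sequence with some members and could take part of their reads. The files hold 65 pseudogenes named for GAPDH, and their share of GAPDH and pseudogene counts together was 0.106 to 0.228% in mRNA, and in chromatin RNA 12.8 to 13.9% in wild type, 14.3 to 18.9% in shDicer, 22.7 to 26.4% in shAgo2 and 21.3 to 28.4% in DroshaKD. For PGAM1, with 13 pseudogenes, the shares were 17.9 to 19.5% in wild-type and 24.0 to 28.3%, 25.9 to 26.9% and 19.1 to 25.8% in shDicer, shAgo2 and DroshaKD chromatin RNA. With the pseudogenes added, GAPDH changed by -0.43 in shAgo2 (edgeR adjusted p = 0.0109), which no longer passed 0.005, and by -0.74 in DroshaKD (adjusted p = 0.00856). How many of these reads came from GAPDH itself cannot be told apart from these values.

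GAPDH and TPI1 lie 328.7 kb apart on chromosome 12 (TPI1 at chr12:6867119-6870948), with 14 tested genes between them. The median log2 fold change of the 50 tested genes nearest to each member was taken as the level of its surroundings. In shDicer mRNA that median was 0.59 around ENO1 (chr1:8861000-8879190), 0.43 around PKM (chr15:72199029-72231819), 0.38 around TPI1, 0.32 around PFKP (chr10:3066333-3137718, 32 genes), 0.18 around GAPDH and -0.25 around LDHA (chr11:18394560-18408425). TPI1 thus exceeded its surroundings by 0.03 and ENO1 by 0.20, while PFKP exceeded them by 1.30 and HK1 (chr10:69269984-69401884) by 0.78. Among the chromatin comparisons the medians ran from -0.38 around ALDOA to 0.47 around ENO1 in shDicer and from -0.44 around ALDOA (chr16:30064164-30070457, a gene that overlaps a readthrough locus, so that its counts are less certain) to 0.51 around ENO1 in shAgo2, but only from -0.12 to 0.08 in DroshaKD. Around GAPDH the median was -0.24 in shAgo2 and 0.01 in DroshaKD, against -0.63 and -0.93 for the gene itself. The number of copies of these regions in each line was not measured here.

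The promoters of the members were searched for ACGTG, the core of the site that HIF-1 binds and part of the CACGTG site that MYC binds, on both strands, in windows from 250 bases before to 50 after each start (RefSeq, GRCh38.p14). It occurred in 4 of the 10, with 5 matches in LDHA, 2 in HK2, 2 in GAPDH and 1 in ALDOA. It occurred in 21.4% of 35116 promoters. Matches were counted on each strand, so that a CACGTG counts on both. For each member only the first listed promoter was searched, while the share is over all listed promoters. The members with a match include GAPDH, which rose in shDicer mRNA, and HK2 and LDHA, which fell there.

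The genes whose levels followed GAPDH most closely over the 6 mRNA-seq and the 8 chrRNA-seq samples were ATP5F1A, a subunit of the mitochondrial ATP synthase (Pearson r of log2 CPM 0.965 and 0.987), TUBA1B, an alpha-tubulin (0.992 and 0.962), and PRDX2, a peroxiredoxin (0.989 and 0.959), of 8696 protein-coding genes compared. These are descriptions: the points share libraries and a scaling, and fall into groups. Of the members, PKM (0.997 and 0.938), HK1 (0.955 and 0.958) and ENO1 (0.997 and 0.880) were nearest to GAPDH in both assays, TPI1 was at 0.984 and 0.839, and PFKP followed it in mRNA (0.975) but less on chromatin (0.453). LDHA (-0.970 and 0.701) and HK2 (-0.952 and 0.504) ran against GAPDH in mRNA and with it on chromatin. ATP5F1A changed by 0.74, 0.08, -0.30 and -0.43 and TUBA1B by 0.38, -0.13, -0.50 and -0.78 in shDicer mRNA and in shDicer, shAgo2 and DroshaKD chromatin RNA.

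The other glycolysis genes showed that the isoforms of a step did not all move alike. Of 21 listed, 11 were tested in mRNA and 16 in chromatin RNA. In shDicer mRNA 4 of 11 were higher at 0.001, where 15.6% of all genes were higher, and the other 7 did not pass. The 4 were GPI, the isomerase between hexokinase and phosphofructokinase, from 119 ± 15.7 to 326 ± 17.8 CPM (log2 fold change 1.45), PFKM, the muscle phosphofructokinase (0.38), and the neuronal and muscle enolases ENO2 (2.29) and ENO3 (2.43), both low in level. The list's median was 0.27. LDHB, the other lactate dehydrogenase subunit, had -0.15 (edgeR adjusted p = 0.0828), and PGK1, which follows GAPDH in the pathway, -0.14 (adjusted p = 0.0904), so the step after GAPDH did not pass where GAPDH did. PFKL, the liver phosphofructokinase, had 0.27 (adjusted p = 0.234).

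In shDicer chromatin RNA 4 of 16 were higher, where 11.0% of all genes were higher, and the other 12 did not pass. The 4 were GPI (0.59), ENO2 (0.84), ENO3 (0.71) and GAPDHS (1.02), the sperm form of GAPDH, at 4.01 ± 0.222 and 8.13 ± 0.0381 CPM. In shAgo2, GAPDHS (0.85) and ENO2 (0.58) were higher, and PFKL (-0.78), PFKM (-0.47) and LDHB (-0.79) were lower, so that in shAgo2 PFKP rose where the other phosphofructokinases fell. In DroshaKD, GPI (-0.56) and LDHB (-0.79) were lower, ENO2 was higher (0.47), and PGK1 rose by 2.23 (SE 0.152, adjusted p = 0.000211), from 221 ± 15.2 to 1034 ± 137 CPM (SD, n = 2). In TPM, which divides the counts of each transcript by its length, PGK1 went only from 93.6 ± 6.85 to 125 ± 0.220. The medians of the list were 0.21, 0.10 and -0.03 in shDicer, shAgo2 and DroshaKD, over genes that went both ways and of which HK3, PGAM4, PKLR and LDHAL6B were low in level.

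Of 14 other genes often used as references, in shDicer mRNA GUSB was higher (1.03) and YWHAZ (-0.69) and HPRT1 (-0.52) were lower, with a median of -0.04. On chromatin TUBB (-0.87) and YWHAZ (-0.62) were lower in shDicer, YWHAZ (-0.52) in shAgo2, and TUBB (-1.02), POLR2A (-0.55) and PPIA in DroshaKD. HPRT1 did not pass in any chromatin comparison (-0.27, -0.21 and 0.11, with edgeR adjusted p = 0.085, 0.156 and 0.664), nor did ACTB, which varied between the shDicer mRNA samples (38.1 ± 27.0 CPM, SD, n = 3). The list's medians on chromatin were -0.16, -0.21 and -0.28 in shDicer, shAgo2 and DroshaKD, against -0.09, -0.58 and -0.63 for the members. The list was thus nearer to 0 than the members in shAgo2 and DroshaKD and farther from it in shDicer.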

How the data were processed

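Transcript abundances of 14 samples were used, 6 of mRNA-seq and 8 of chrRNA-seq, and 6 small RNA samples were not analysed here. The authors made them with kallisto in stranded mode on an Ensembl transcript index, and deposited an estimated count and a TPM value per transcript, with TPM the share of a library after division by transcript length. The labels call the mRNA-seq RNA polyA but name a total RNA kit, and the chrRNA-seq libraries were made with an mRNA kit. Of 217082 transcripts, 193697 (89.2%, with 93.4 to 94.8% of counts) were assigned to genes by GENCODE release 44 (GRCh38), and their estimated counts were summed per gene and rounded. Depth was 10216430 to 17215978 counts in mRNA-seq and 17484067 to 21553760 in chrRNA-seq.

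Counts were tested with edgeR 4.0.16 in R 4.3.3 (TMM, filterByExpr, glmQLFit and glmQLFTest, two-sided, Benjamini-Hochberg adjustment over all genes tested), with 1 fit for mRNA-seq (15090 genes), 1 for chrRNA-seq (32874) and 1 for the difference of the shDicer effects (31106). The procedure was tested on simulated data. Thresholds on the adjusted p were 0.001 for mRNA-seq, 0.005 for chrRNA-seq, and 0.05 for DroshaKD against wild type. Changes relative to GAPDH came from the same test with the log GAPDH count as the only offset, and transcript classes were features of their own compared with diffSpliceDGE. DESeq2 1.42.0, other scalings and filters, a replicate block and the leaving out of each sample were alternatives. The retained-intron fit and the crossed replicate block were chosen after seeing the data. Named genes were the members, the depleted genes, all tested other glycolysis genes, up to 2 per direction and comparison of each further list, HPRT1 and ACTB, and the 3 genes most like GAPDH. PPIA was named after its values were seen. The members and lists were chosen with earlier results of these data known. Primer sequences came from the study's oligonucleotide list.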

Additional observations from a re-analysis of the deposited data

Results flagged for a closer look

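The shDicer effect in chromatin RNA differed from that in mRNA for 4 enzymes, by edgeR's test of the difference itself at an adjusted p of 0.005. The difference on the log2 scale was -1.02 for ALDOA (adjusted p = 0.00382), -0.97 for HK1 (adjusted p = 0.000175), -0.85 for PKM (adjusted p = 0.00222) and -0.80 for PFKP (adjusted p = 0.00277). Of 17 alternatives the call was lost in 1 for HK1, 10 for PKM, 11 for ALDOA and 12 for PFKP. HK1 rose in mRNA from 38.4 ± 2.22 to 68.7 ± 1.21 CPM (SD, n = 3) and was at 144 ± 5.12 and 139 ± 17.9 CPM on chromatin (SD, n = 2). PFKP rose in both assays, by less on chromatin. The fit scaled both assays together, and the median difference of all genes in it was -0.10. The wild-type cells, the time in doxycycline and the kits differed between the assays, and their part cannot be told apart.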

How the results depend on the processing

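Of 1854 values of single enzymes under 26 alternatives, 1587 kept their side of the threshold (61 of them changed sign without a call in either). Of the others, 195 no longer passed, 69 passed in addition, and 3 changed sign with a call in the main fit or the alternative but not in both. All 3 came with retained-intron transcripts only. PKM in shDicer mRNA (-0.13) and ENO1 in DroshaKD (0.024) lost their call, and ENO1 in shAgo2 (0.37) gained one. The GAPDH call was lost in 4 of 16 alternatives in shDicer mRNA, 10 of 19 in shAgo2 and 3 of 20 in DroshaKD. The cause was not tested.

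In shDicer mRNA the counts of higher and lower members (6 and 2) became 2 and 1 with each gene's neighbourhood as offset and 1 and 1 with retained-intron transcripts, and ranged from 4 to 6 and 1 to 2 without a replicate. In shDicer chromatin RNA (1 and 2) 2 were higher with retained-intron transcripts, and 1 was lower with DESeq2-type size factors, counts scaled from TPM, protein-coding or retained-intron transcripts only, pseudogenes added, the replicate block or the offset, and 0 to 3 without a replicate. In shAgo2 (1 and 6) 2 were higher with retained-intron transcripts and 2 lower with these or the offset, and 2 to 6 were lower without a replicate. In DroshaKD 3 instead of 9 were lower with counts scaled from TPM and with the replicate block, 0 with retained-intron transcripts and 0 to 9 without a replicate.

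Between shAgo2 and shDicer 2 were lower by DESeq2, 3 without the low-count filter and 0 to 3 without a replicate. Between DroshaKD and shDicer 2 were lower with protein-coding transcripts or the replicate block and 2 to 6 without a replicate. Between DroshaKD and shAgo2, 1 was higher by DESeq2, library size or no filter, 2 lower by library size or no filter, and without a replicate 0 to 1 higher and 1 to 2 lower. Relative to GAPDH, 0 were higher in shDicer mRNA with counts scaled from TPM. In shDicer chromatin RNA 0 were lower without the filter, with protein-coding transcripts or the block and 3 with pseudogenes, and without a replicate 0 to 1 were higher and 0 to 3 lower. In shAgo2 2 were higher with counts scaled from TPM, 1 lower with pseudogenes, and 1 to 2 higher without a replicate. In DroshaKD 6 were higher with counts scaled from TPM and 0 to 4 without a replicate. The difference of the shDicer effects was called for 1 member with size factors, no filter or protein-coding transcripts, 0 with counts scaled from TPM, 2 with pseudogenes and 1 to 7 without a replicate.

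Samples of the same number were not shown to be paired: deviations correlated by 0.0455 to 0.0812 in mRNA over all tested genes (0.120 to 0.254 over 9397 expressed genes, where each sample correlated best with its own number, a hint from the data and not the design). With the replicate block, 5 members were higher in mRNA (PGAM1 had an adjusted p of 0.0024 by edgeR) and 4 lower in shAgo2. On chromatin the shDicer and DroshaKD numbers correlated by -0.131 over all tested genes and by -0.535 over 15597 expressed genes, and those of wild type and DroshaKD by -0.0740 and -0.368. With the DroshaKD numbers crossed, a fit chosen after seeing the data, 10 members were lower in DroshaKD against wild type. Against shAgo2, 1 was higher and 4 lower in that fit. The share of all genes called in it was not set beside these counts, so they are no result about the members. GAPDH stood at -0.95 against wild type in it and at -0.93 in the main fit. Depth limits none of these enzymes, the least abundant of which had 392 counts or more in each library, while 2 samples a group limit all chromatin calls.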

Other observations

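SLC2A3, the neuronal glucose transporter, rose in shDicer mRNA from 6.58 ± 0.628 to 31.4 ± 0.704 CPM (SD, n = 3; log2 fold change 2.25, edgeR adjusted p = 1.24e-07), and on chromatin in shDicer (1.12) and shAgo2 (1.21). SLC16A1, a lactate exporter (-0.88), and MPC1, a subunit of the mitochondrial pyruvate carrier (-0.86), fell in shDicer mRNA, and BSG, the partner that carries lactate exporters to the membrane, rose (0.99). On chromatin SLC16A7 rose in shAgo2 (0.67), SLC2A2 fell in shDicer (-1.93), and SLC2A1 (-0.64) and BSG (-0.67) fell in DroshaKD. Of the transport list 2 of 8 were higher and 2 lower in shDicer mRNA, where 15.6% and 14.2% of all genes were, and 1 and 1 of 11 in shDicer chromatin RNA, where 11.0% and 10.5% were. Among 15 regulators tested in mRNA, 2 were higher and 3 lower, where 15.6% and 14.2% of all genes were. PDK4, a kinase that turns off pyruvate dehydrogenase (1.96), and HIF1A (0.40) rose, and PFKFB2 (-0.89) and MYC (-0.76) fell. PDK4 rose on chromatin too, in shDicer (2.22) and shAgo2 (2.97), from a level of 0.460 ± 0.0638 CPM, and PDK1 rose in shDicer (0.38). In shAgo2 MYC rose (0.65), and EPAS1 (-0.81) and PDHB (-0.47) fell. None of the 16 regulators passed at 0.05 in DroshaKD, where 1.19% of all genes were higher and 2.18% lower.

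HIF targets outside glycolysis went in both directions. In shDicer mRNA 5 of 16 were higher and 1 was lower (15.6% and 14.2% of all genes), led by ADM, a vasoactive peptide, from 4.37 ± 0.608 to 19.2 ± 3.09 CPM (2.14, edgeR adjusted p = 2.06e-06), and P4HA2 (1.31), with STC2 lower (-0.97). In shDicer chromatin RNA 6 of 17 were higher and 2 lower (11.0% and 10.5% of all genes), with EGLN3 (1.45) and ADM (1.43) against P4HA1 (-0.58) and BNIP3 (-0.38), and in shAgo2 3 were higher and 3 lower (12.5% and 12.1% of all genes), with the same genes named: EGLN3 (1.06), ADM (1.01), P4HA1 (-0.49) and BNIP3 (-0.43). In DroshaKD ADM was higher (0.75). In the pentose phosphate pathway PGD rose (1.21) and RPE fell (-0.74) in shDicer mRNA, while on chromatin TKT (-0.57 and -0.64) fell in shDicer and shAgo2, and PGD (-0.90) and TALDO1 (-0.39) fell in DroshaKD.

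Enzymes of the tricarboxylic acid cycle were called as follows on chromatin: of 16 tested, 6 were lower in shDicer, 9 in shAgo2 and 4 in DroshaKD, where 10.5%, 12.1% and 2.18% of all genes were lower, and 1, SDHB in shAgo2 (0.57), was higher. Their medians were -0.32, -0.33 and -0.24. CS, citrate synthase, went from 239 ± 10.1 to 130 ± 9.03 CPM in shAgo2 (SD, n = 2; -0.88, edgeR adjusted p = 6.53e-06) and FH from 28.2 ± 0.652 to 16.6 ± 2.25 CPM (-0.77), and in DroshaKD OGDH (-0.62) and CS (-0.53) fell. SUCLA2 (-0.60) and OGDH (-0.57) fell in shDicer chromatin RNA. In shDicer mRNA 3 were higher, with SDHA (0.76) and MDH2 (0.68), and 3 lower, with SUCLA2 (-1.87) and SDHD (-0.84). There 15.6% of all genes were higher and 14.2% lower. Of the gluconeogenic genes PCK2 rose in shDicer mRNA (1.22) and PCK1 in shDicer (1.58) and shAgo2 (1.43) chromatin RNA, and PC, pyruvate carboxylase, fell in all 3 chromatin comparisons (-1.23, -1.12 and -0.55), which share their wild-type samples.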
